A study of Mus musculus with 8 samples.

Results

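The 2 cell types of the alveolar epithelium, type I (AECI) and type II cells (AECII), were taken by fluorescence-activated cell sorting from control mouse lungs at embryonic day E18.5 and compared with each other on single-colour expression arrays. The comparison took the 4 control arrays of the 8 in the series, 2 from AECII and 2 from AECI, and every gene with a symbol on the array. A gene with more than 1 spot was represented by its brightest spot over the 8 arrays, which gave 24306 genes. No gene was chosen by its level.

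Tamoxifen had been given to the pregnant females on E14.5 and again on E15.5, and the control embryos came from females other than those that carried the experimental embryos, with all later steps the same. The labels give neither the control genotype, the Cre driver, the number of embryos behind a sample nor the surface markers of the sort, so any gene, Pdpn included, may have been part of the gate. By its title the series concerns Fgfr2b signalling, blocked in cells that express Sftpc, and the experimental samples carry the tag Fgfr2bflox. The design text calls the 2 samples of a group biological replicates. Whether these were single embryos or pools is not given in the sources used here, and each p-value rests on the spread between so few samples.

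The values were log2 signals that had been put on a common distribution before deposition, from 1.34 to 15.995 with a lower quartile of 3.07 over all spots. Control arrays correlated at r of 0.951 to 0.977 across genes within a population and at 0.945 to 0.951 between populations, and the SD between replicates had a median of 0.348 in AECI and 0.232 in AECII. Both populations held 1 array with a male pattern of sex-linked transcripts. Xist, the RNA of X inactivation, read 3.96 in AECI replicate 1 and 6.53 in AECII replicate 2, against 13.61 in AECI replicate 2 and 13.90 in AECII replicate 1. With the male pattern as a covariate, 144 genes were higher and 227 lower in AECII, in place of the 316 and 373 given below, and 132 and 217 of the genes called without it were among them. Within the pair of arrays of male pattern the median difference was 2.08 over the 316 higher genes and -2.39 over the 373 lower genes, and within the other pair it was 1.94 and -2.09. These genes were called on the same arrays and did not overlap, so each pair had to show these signs. The part of sex was not tested by these medians.

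Type I cells are thin and wide and cover most of the gas exchange surface, over a basement membrane shared with the capillaries. Type II cells are cuboidal, store surfactant in lamellar bodies, secrete it, and can give rise to type I cells after injury. Both descend from distal tip progenitors that express Nkx2-1, and both mature in the days before birth. Surfactant is mostly dipalmitoyl phosphatidylcholine with a few proteins, so a type II cell runs a large lipid and secretory programme, while a type I cell is marked by caveolae, water and sodium channels, and matrix.

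In all, 316 genes (1.30% of the 24306 tested) were higher and 373 (1.53%) lower in AECII by limma at an adjusted p under 0.05. The smallest difference past the threshold was 1.21 on the log2 scale, and the median size was 2.06 among higher and 2.23 among lower genes. The arrays of the 2 populations did not overlap for any of these 689 genes. Over all genes, however, 5724 (23.5%) had both AECII arrays above both AECI arrays and 5363 (22.1%) had both below. The median difference over all genes was 0.005, a value that the common distribution of the normalized arrays fixes near 0. For 65 of the higher and 18 of the lower genes the dimmer population lay under the lower quartile of spots, where differences are approximate. Without either AECII control array, which leaves 1 AECII array in the comparison, 0 genes passed in limma, with 2822 at an unadjusted p under 0.05 without replicate 1 and 2879 without replicate 2. The fit to the 4 control arrays alone also called 0, with 3630 at an unadjusted p under 0.05.

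**Figure D1:**
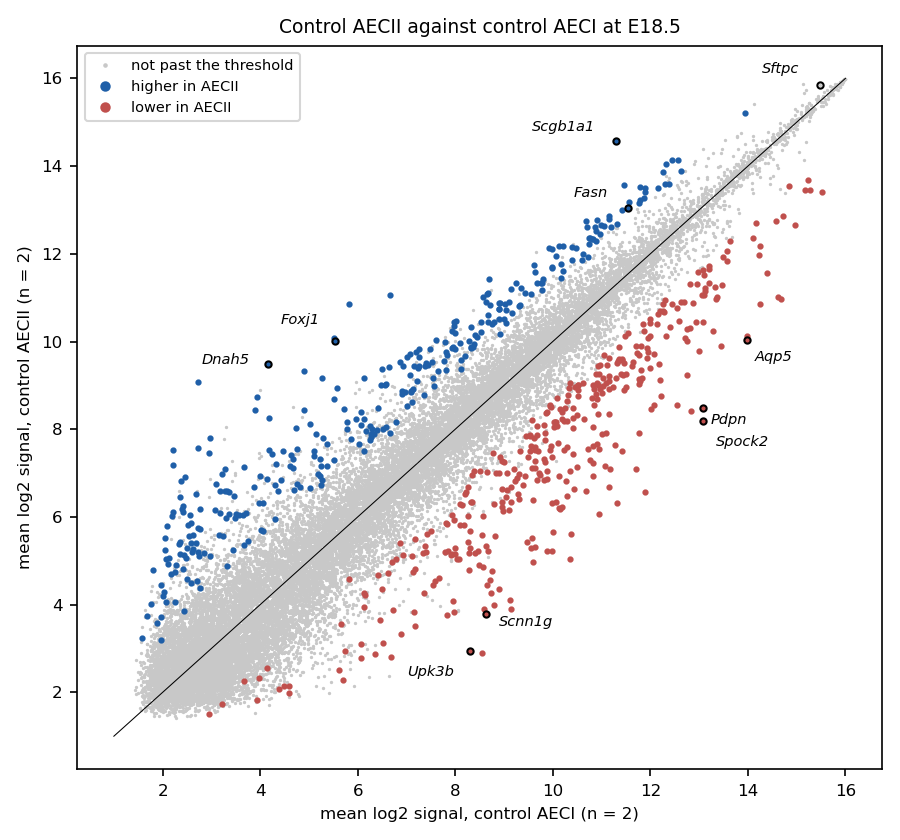
Each point is 1 gene at its mean log2 signal in control AECI (x axis, n = 2) and control AECII (y axis, n = 2), with the 316 genes higher in AECII in blue, the 373 lower in red and the line of equality in black. Scgb1a1, Foxj1 and Dnah5 lie far above the line, Pdpn, Spock2 and Scnn1g far below it, and Sftpc lies close to it near the top of the scale.

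Genes of type I structure and identity had the highest share of members past the threshold among the lists examined. The lists were chosen with earlier results of these data known, so this rank is a description and not a test. Of 39 measured members of this list, 31 were lower in AECII, 0 were higher and 8 did not pass. The median difference was -2.45, and 37 of the 39 had both AECII arrays below both AECI arrays. With the male pattern as a covariate 25 members were still lower, and with the replicate block 26.

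Hopx, a homeodomain protein without DNA binding of its own, read 13.38 and 13.19 in the AECI arrays and 10.40 and 10.09 in the AECII arrays, a difference of -3.04 (SE 0.27, limma adjusted p = 0.00881). Aqp5, the water channel of the type I apical membrane, read 14.16 and 13.79 in AECI and 10.08 and 9.98 in AECII, a difference of -3.95 (SE 0.27). Pdpn, a mucin-like surface glycoprotein, read 13.19 and 12.96 in AECI and 8.87 and 8.11 in AECII, a difference of -4.58 (SE 0.37). These genes were far apart between populations, by 8.24-fold to 24.0-fold, yet their AECII signal stayed well above the lower quartile of spots. In bulk samples fewer cells of a type and less RNA per cell cannot be told apart.

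Spock2, a heparan sulphate proteoglycan of the testican family, had the largest difference in the list, with 13.18 and 12.998 in AECI and 7.65 and 8.72 in AECII (-4.91, SE 0.49). Cav1, the structural protein of caveolae, read 13.49 and 13.41 in AECI and 9.95 and 9.86 in AECII (-3.55, SE 0.30). Itgb6, the integrin subunit that with its alpha partner releases TGF-beta from its latent complex, read 10.37 and 10.02 against 6.13 and 6.31 (-3.98, SE 0.45). All 3 genes read lower in both AECII arrays than in either AECI array. Tmem37, a calcium channel gamma-like protein, was also lower in AECII (-3.67, SE 0.32).

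Well known type I markers were not all among the genes past the threshold. Ager, the receptor for advanced glycation end products, read 15.14 and 15.16 in AECI and 14.20 and 14.08 in AECII (-1.01, 95% interval -1.53 to -0.49, adjusted p = 0.0697). Cldn18, the main claudin of alveolar tight junctions, read 14.19 and 14.02 in AECI and 13.26 and 13.52 in AECII (-0.72, SE 0.23). Neither gene had overlapping arrays, and both were bright in both populations. Igfbp2, a binding protein of insulin-like growth factors, was dimmer and overlapped, at 6.23 and 7.23 in AECI and 6.25 and 5.59 in AECII (-0.81, adjusted p = 0.515). Lmo7, an actin-binding protein at junctions, had a difference of -1.37 (adjusted p = 0.0508), just outside the threshold.

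**Figure D2:**
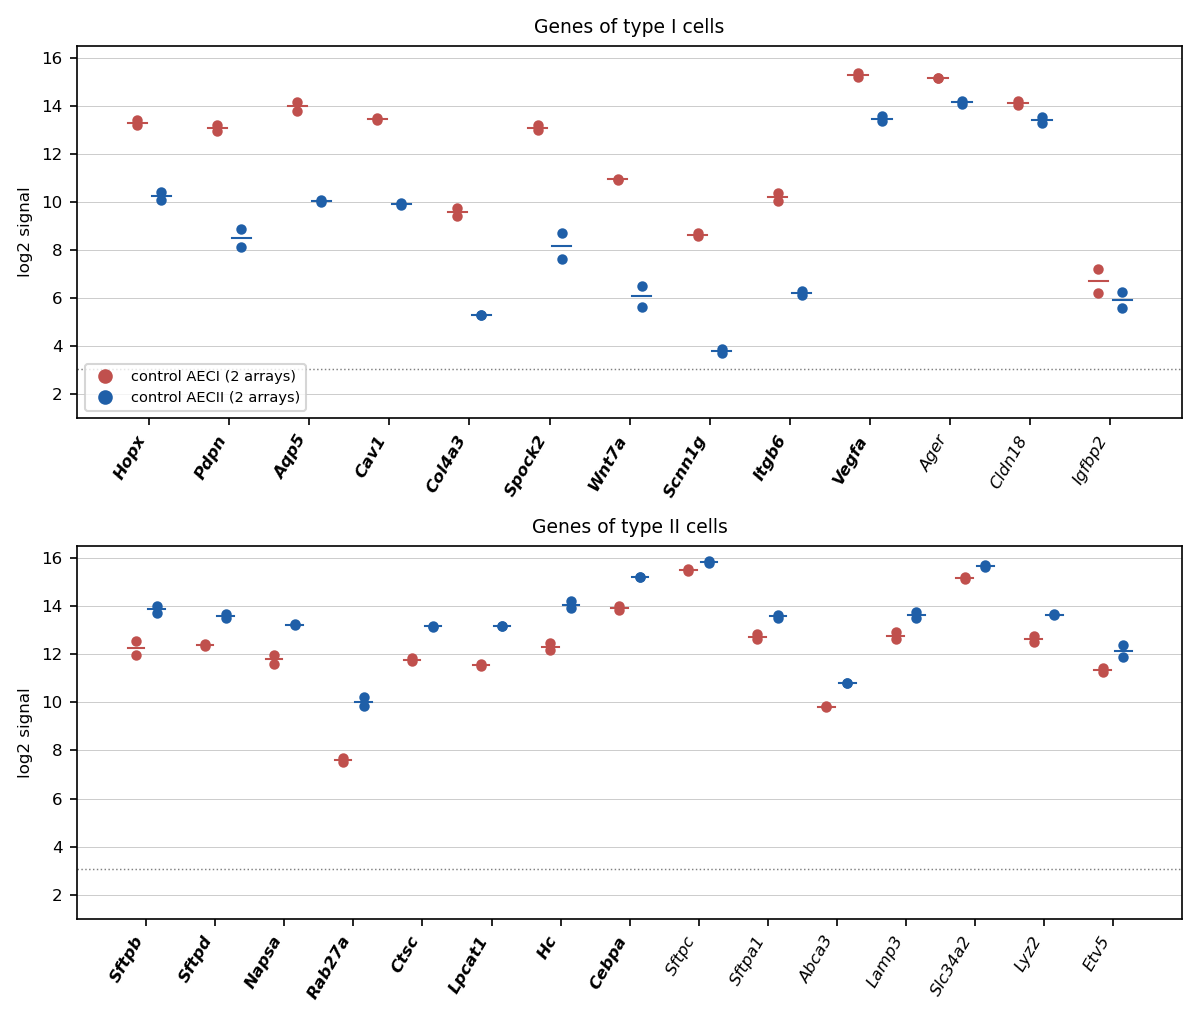
Points are the log2 signal of each control array, red for AECI and blue for AECII (2 arrays each), short lines are group means, the dotted line is the lower quartile of spots (3.07), and gene names in bold passed the threshold. The upper panel shows type I genes, with the wide gaps of Pdpn, Spock2 and Scnn1g beside the narrow gaps of Ager and Cldn18, and the lower panel shows type II genes, with Sftpc near the top of the scale in both populations.

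The words that transcription factors of this lineage bind were looked up in the RefSeq promoters (250 bases before to 50 after each start site, GRCm38.p6). NKX2-1, the homeodomain factor whose gene Nkx2-1 read 13.87 to 13.99 on the 4 control arrays, is known to bind CAAGTG, a word that is also an E-box of the form CANNTG. On either strand it was present for 9 of the 25 called type I genes with a promoter in the table (36.0%), against 15.4% of all 27025 genes in the table. It was present for 52 of 283 called lower genes (18.4%) and for 38 of 248 called higher genes (15.3%). The promoters of Spock2 (chr10:60106007-60106306, + strand) and Wnt7a (chr6:91411304-91411603, - strand) are shown because these were the type I genes of largest difference that held the word. Capitals mark CAAGTG or its reverse complement, which lies 32 bases after the start site in Spock2 and 3 bases after it in Wnt7a.
Spock2: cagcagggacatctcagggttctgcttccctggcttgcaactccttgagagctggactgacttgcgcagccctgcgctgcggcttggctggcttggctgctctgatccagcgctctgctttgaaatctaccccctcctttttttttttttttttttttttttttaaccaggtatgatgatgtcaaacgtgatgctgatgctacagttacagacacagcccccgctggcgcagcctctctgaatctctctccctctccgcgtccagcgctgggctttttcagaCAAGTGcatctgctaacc
Wnt7a: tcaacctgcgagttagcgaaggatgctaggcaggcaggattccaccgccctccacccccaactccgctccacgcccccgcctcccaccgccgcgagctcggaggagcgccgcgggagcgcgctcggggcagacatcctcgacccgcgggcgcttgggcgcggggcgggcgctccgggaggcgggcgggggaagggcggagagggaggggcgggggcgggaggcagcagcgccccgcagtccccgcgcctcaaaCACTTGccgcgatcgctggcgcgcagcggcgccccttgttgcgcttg
A match is a description of letters and not evidence of binding. The TEAD and RFX words described below and the forkhead word GTAAAC were searched in the same gene sets. GTAAAC was present for 3 of the 25 called type I genes (12%), against 8.92% of all genes in the table. In the lists described below it was present for 3 of 10 called ciliary genes and 2 of 6 called YAP and TEAD genes.

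Several coat genes of caveolae were lower in AECII. Of 26 measured members of a list of caveolar, membrane-bending and actin genes, 7 were lower in AECII and 0 higher, with a median difference of -1.17, and 4 passed under the replicate block and 5 with a term for the male pattern. Cavin1, the coat protein without which caveolae do not form, read 15.57 and 15.48 in AECI and 13.58 and 13.23 in AECII (-2.12, SE 0.25, agreement in sign over all 11 spots). Cavin2 read 14.18 and 13.77 against 10.08 and 10.18 (-3.84, SE 0.26), and Cavin3 was lower by 3.56 (SE 0.52). The coat genes thus read lower in every AECII array than in any AECI array. Ehd2, the ATPase that holds the neck of a caveola at the membrane, was lower by 2.56 (SE 0.27), although 1 of its 3 spots had the other sign. Msn, which ties actin to the membrane, read 14.61 and 14.54 in AECI and 12.71 and 12.79 in AECII (-1.82, SE 0.22). Myh9, the heavy chain of non-muscle myosin, had a difference of -0.75 (adjusted p = 0.159).

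Annexins and S100 proteins, which bind membranes or partners in the presence of calcium, were mixed. Of 20 measured genes 6 were lower in AECII and 1 higher, at a median of -0.76. The replicate block left 2 lower and 0 higher, and the male pattern term 3 and 0. S100a6 read 14.64 and 14.70 in AECI and 10.92 and 10.996 in AECII (-3.71, SE 0.26), a 13.1-fold gap with replicates that lay close together. S100a14 (-2.64, SE 0.25) and Anxa3 (-1.97, SE 0.26) were lower too. S100g, the vitamin D-dependent calcium binding protein, went the other way with 10.54 and 11.22 in AECI and 12.55 and 12.48 in AECII (1.64, SE 0.29). Anxa4 read between 13.04 and 13.23 on all 4 arrays.

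Genes of the basement membrane and its receptors were lower in AECII in 9 of 35 measured members and higher in 1, with a median of -0.84. Either of the replicate block and the male pattern term left 5 lower and 0 higher. Fbln5, which organises elastic fibres, read 11.28 and 11.01 in AECI and 6.42 and 6.95 in AECII (-4.46, SE 0.33). Col4a3, a collagen IV chain of the mature alveolar basement membrane, was counted with the type I list. It read 9.73 and 9.40 in AECI against 5.31 and 5.29 in AECII (-4.26, SE 0.41). Agrn and Hspg2, the large heparan sulphate proteoglycans agrin and perlecan, were lower by 2.75 (SE 0.29) and 2.68 (SE 0.30). The laminin chains did not move as a block. Lamb1 was higher in AECII (9.03 and 8.75 in AECI, 10.71 and 10.78 in AECII), with a difference of 1.85 (SE 0.28), while Lamb2 was lower by 1.81 (SE 0.27) and Lama5 did not pass (-0.68, adjusted p = 0.22). Itga3, the integrin subunit that binds laminin in lung epithelium, was lower by 2.08 (SE 0.30). The matrix modifier Sulf1, which trims heparan sulphate, was lower by 4.22 (SE 0.73), with 9.58 and 7.74 in AECI and 4.04 and 4.84 in AECII, and its difference turned to 0.0097 with the median of its 3 spots.

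The epithelial sodium channel, which clears lung liquid at birth, was lower in AECII in all of its 3 subunits. Scnn1g read 8.70 and 8.58 in AECI and 3.72 and 3.87 in AECII (-4.85, SE 0.25, 28.8-fold). Scnn1b read 9.37 and 9.78 against 5.64 and 5.38 (-4.06, SE 0.41). Scnn1a had a narrower gap, with 11.84 and 11.89 in AECI and 10.03 and 10.44 in AECII (-1.63, SE 0.27). The call of Scnn1a was lost under the replicate block (limma adjusted p = 0.0769) and with the male pattern term (limma adjusted p = 0.0678). Scnn1g was counted with the type I list. Scnn1a and Scnn1b were 2 of the 3 members called lower among 27 measured ion and water transport genes (0 higher, median 0.10). The third was Ano1, a calcium-activated chloride channel, at 11.54 and 11.44 in AECI and 9.36 and 9.16 in AECII (-2.23, SE 0.22). Cftr, the chloride channel mutated in cystic fibrosis, had a positive difference that did not pass (1.14, adjusted p = 0.102), and the Na,K-ATPase subunit Atp1b1 differed by 0.28 (adjusted p = 0.702).

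Genes of secreted signals were among those lower in AECII. Vegfa, the growth factor on which alveolar capillaries depend, read 15.36 and 15.17 in AECI and 13.57 and 13.35 in AECII (-1.81, SE 0.24), bright in both populations and lower in both AECII arrays. Fgfr2, called higher and described below, was counted with the distal tip list. Among 36 measured genes of FGF, ERBB and related growth factor signalling 8 were lower in AECII and 0 higher, although the median was only -0.11. The replicate block left 4 of these calls and the male pattern term 5. Fgf18 read 10.73 and 10.14 in AECI and 6.85 and 6.42 in AECII (-3.80, SE 0.31), and Fgf1 read 14.86 and 14.84 against 13.43 and 13.68 (-1.30, SE 0.23). Both FGF ligands were thus lower in each AECII array. Pdgfa, the ligand that recruits alveolar myofibroblasts, was lower by 1.81 (SE 0.27), and Hbegf, a membrane-bound EGF family ligand, by 1.80 (SE 0.26). Igfbp6 and Igfbp7 were lower by 2.55 (SE 0.23) and 2.52 (SE 0.28). The receptor Igf1r was called lower (-1.58), but only 2 of its 4 spots had that sign.

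Fgfr2, which encodes the receptor of FGF7 and FGF10, went the opposite way. It read 11.03 and 11.37 in AECI and 12.60 and 12.62 in AECII (1.41, SE 0.25, adjusted p = 0.0446). The call was lost under the replicate block (adjusted p = 0.0718) and with the male pattern term (adjusted p = 0.0761). The array values do not separate its splice isoforms here. Met, the receptor of hepatocyte growth factor, had a difference of 1.37 that did not pass (adjusted p = 0.0863).

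Among 41 measured Wnt ligands and responses 3 were lower in AECII and 0 higher, at a median of -0.19. The replicate block left 2 of these calls, as did the male pattern term. Wnt3a read 9.70 and 10.26 in AECI and 5.34 and 5.12 in AECII (-4.75, SE 0.28, 27.0-fold), and the secreted inhibitor Sfrp2 read 11.69 and 10.64 against 7.12 and 7.09 (-4.06, SE 0.58). Wnt7a, counted with the type I list, read 10.96 and 10.92 in AECI and 6.51 and 5.65 in AECII (-4.87, SE 0.65). Both ligands were far lower in AECII, while Wnt7b, the ligand of distal epithelium, differed by -0.83 (adjusted p = 0.233). Of 35 measured BMP and TGF-beta genes 2 were higher and 1 lower. Tgfb2 read 10.74 and 10.71 in AECI and 7.63 and 7.45 in AECII (-3.18, SE 0.32), and Bambi, a pseudoreceptor that dampens BMP and TGF-beta signals, read 7.69 and 8.30 against 9.81 and 9.84 (1.83, SE 0.29). Bmp1, a protease that matures procollagen, was higher by 1.41 (SE 0.23). In the Notch pathway 1 of 23 measured members was lower (Dlk2, a non-canonical ligand, -2.41, SE 0.23) and 1 higher (Dtx4, a ubiquitin ligase, 1.39, SE 0.23). Among 47 guidance and ephrin genes Efna1 was lower (-1.47, SE 0.24) and Sema4f higher (1.48, SE 0.24), and the median of that list was -0.01. In these 3 families the calls of higher genes (Bambi, Bmp1, Dtx4 and Sema4f) were lost under both the replicate block and the male pattern term, as was that of Efna1.

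YAP and TAZ carry mechanical stretch to the nucleus through the TEAD factors and are required for the type I fate in mice. Of 35 measured members of a list of this pathway and its targets 9 were lower in AECII and 0 higher, with a median of -0.85. The replicate block left 5 of these calls and the male pattern term 6. Tgfb2, described above, was among the 9. Ccn2, a classical target, read 13.11 and 12.55 in AECI and 8.49 and 8.33 in AECII (-4.42, SE 0.38, 21.4-fold). Ajuba, a LIM protein that restrains the kinase LATS, read 8.70 and 8.72 against 4.52 and 4.62 (-4.14, SE 0.30). Both genes read lower in each AECII array, and so did parts of the machinery itself. Wwtr1, the gene of TAZ, read 11.12 and 11.17 in AECI and 9.08 and 9.36 in AECII (-1.92, SE 0.24), and Tead4 read 9.33 and 10.02 against 6.89 and 6.81 (-2.82, SE 0.38). Ccn1 was lower by 1.46 (SE 0.23) and the tissue factor gene F3 by 2.03 (SE 0.25). The kinase Lats2 had a difference of -1.26 (adjusted p = 0.0583) and the stress kinase Nuak2 one of 0.59 (adjusted p = 0.382).

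The TEAD word GGAATG was searched on either strand. Of the 6 called members of this list that are in the table, Ajuba, Wwtr1, Wwc2 and Ccn1 held it. The word was thus present for 4 of the 6, against 16.6% of all genes in the table. It was present for 42 of 283 called lower genes (14.8%) and 40 of 248 called higher genes (16.1%), near the share over all genes. The promoters of Ajuba (chr14:54577612-54577911, - strand) and Wwtr1 (chr3:57575861-57576160, - strand) are shown as the holders of largest difference, with the word or its reverse complement in capitals. In Ajuba the word begins 186 and 164 bases before the start site, and in Wwtr1 it begins 136 bases before it.
Ajuba: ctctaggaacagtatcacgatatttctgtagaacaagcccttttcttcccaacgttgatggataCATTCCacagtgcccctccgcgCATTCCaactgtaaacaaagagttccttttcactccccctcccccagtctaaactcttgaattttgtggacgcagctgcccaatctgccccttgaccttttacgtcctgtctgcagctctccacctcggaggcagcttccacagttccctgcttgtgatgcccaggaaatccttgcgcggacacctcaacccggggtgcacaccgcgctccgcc
Wwtr1: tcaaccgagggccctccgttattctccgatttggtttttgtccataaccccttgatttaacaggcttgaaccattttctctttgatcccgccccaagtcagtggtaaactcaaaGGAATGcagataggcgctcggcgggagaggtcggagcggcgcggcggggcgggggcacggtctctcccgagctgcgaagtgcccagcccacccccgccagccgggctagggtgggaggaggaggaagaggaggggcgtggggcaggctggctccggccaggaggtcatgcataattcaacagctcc
Called type I genes as a whole held this word in only 1 of 25 promoters.

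Among the 4 lists of type II genes 20 of 95 measured members were higher in AECII and 0 lower. Of 10 measured surfactant proteins and their processing enzymes 3 were higher and 0 lower, with a median of 0.60, and 8 of the 10 had both AECII arrays above both AECI arrays. Sftpb, whose hydrophobic protein is essential for breathing, read 11.98 and 12.55 in AECI and 13.99 and 13.73 in AECII (1.59, SE 0.29, adjusted p = 0.0479, 3.01-fold). Sftpd, the collectin surfactant protein D, read 12.34 and 12.42 against 13.51 and 13.68 (1.22, SE 0.22, adjusted p = 0.0469). Napsa, the aspartic protease that cuts pro-SP-B and pro-SP-C, read 11.59 and 11.98 against 13.20 and 13.25 (1.44, SE 0.24). Every AECII array lay above every AECI array for these 3 genes, yet AECI also gave strong signal. Under the replicate block 0 of the 10 passed, as with a term for the male pattern.

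Sftpc, the gene whose expression defines the lineage named in the series title, read 15.53 and 15.45 in AECI and 15.80 and 15.88 in AECII (0.36, 95% interval -0.18 to 0.89, adjusted p = 0.503). Both populations stood near the upper end of the scale, 15.995. Whether differences are compressed at that level was not tested. Sftpa1 read 12.61 and 12.84 in AECI and 13.51 and 13.65 in AECII (0.85, adjusted p = 0.139). The arrays of both genes did not overlap between the populations, and neither passed.

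In the list of lamellar body and secretory trafficking genes 2 of 27 measured members were higher and 0 lower, at a median of 0.32, and 10 of the 27 had a difference below 0. Under the replicate block 1 passed, as with the male pattern term. Rab27a, a small GTPase that docks secretory organelles at the membrane, read 7.69 and 7.52 in AECI and 9.84 and 10.21 in AECII (2.42, SE 0.25, 5.36-fold). Ctsc, a lysosomal dipeptidyl peptidase, read 11.71 and 11.84 against 13.13 and 13.19 (1.39, SE 0.23). Abca3, the pump that loads lipid into lamellar bodies, had tight replicates at 9.84 and 9.78 in AECI and 10.82 and 10.81 in AECII, and its difference of 1.001 (95% interval 0.47 to 1.53) had an adjusted p of 0.0755. Lamp3 (0.84, adjusted p = 0.171) and the phosphate transporter Slc34a2 (0.51, adjusted p = 0.336) also did not overlap and did not pass, Slc34a2 at 15.11 to 15.69 over the 4 arrays.

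Secreted and defence proteins gave 6 higher and 0 lower of 27 measured members, at a median of 0.95. The replicate block left 1 of these calls and the male pattern term 2. Hc, the gene of complement C5, read 12.45 and 12.18 in AECI and 13.90 and 14.21 in AECII (1.74, SE 0.25). Lcn2, which sequesters bacterial siderophores, read 10.70 and 10.79 against 12.26 and 12.47 (1.62, SE 0.24). The iron carrier Trf was higher by 1.74 (SE 0.32), the paraoxonase Pon1 by 2.30 (SE 0.40), the alarmin Il33 by 2.02 (SE 0.35) and Egfl6 by 1.61 (SE 0.29). Lyz2, the lysozyme gene often used to mark type II cells, read 12.75 and 12.53 in AECI and 13.64 and 13.65 in AECII (1.01, adjusted p = 0.102). The chemokine Cxcl15, a lung-restricted product of the mouse, read 14.06 and 14.20 against 15.43 and 15.40 (1.28, adjusted p = 0.0583).

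Of 31 further genes known from type II cells 9 were higher and 0 lower, with a median of 1.16. With the replicate block 4 passed, and with the male pattern term 5. Cebpa, a transcription factor of type II maturation and lipid metabolism, read 13.85 and 14.02 in AECI and 15.21 and 15.20 in AECII (1.27, SE 0.22). Ank3, which anchors membrane proteins to spectrin, read 8.72 and 8.52 against 10.96 and 10.85 (2.28, SE 0.23, all 6 spots of the same sign). Slco4c1, an organic anion transporter, was higher by 2.22 (SE 0.24), the autophagy gene Dram1 by 1.92 (SE 0.24), the chloride transporter Slc26a9 by 1.72 (SE 0.24) and the carbonyl reductase Cbr2 by 1.41 (SE 0.23). Etv5, an ETS factor downstream of FGF signalling, had a difference of 0.80 (95% interval 0.14 to 1.46, adjusted p = 0.215), with 11.42 and 11.28 in AECI and 11.90 and 12.40 in AECII. Epcam, present on both alveolar cell types, differed by 0.35 (adjusted p = 0.525).

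Some genes of lipid synthesis were higher in AECII. In the list of sterol and fatty acid synthesis, with 38 measured genes, 4 were higher and 0 lower, and 35 had a difference above 0 against 12238 of all 24306 genes, with a median of 0.84. Only 1 of the 4 calls was left under the replicate block, and 1 with the male pattern term. Srebf1, the transcription factor of fatty acid synthesis, read 9.13 and 8.95 in AECI and 10.71 and 10.73 in AECII (1.68, SE 0.24). Fasn, the fatty acid synthase, read 11.46 and 11.61 against 13.11 and 12.998 (1.52, SE 0.22). The factor and the enzyme were both higher in each AECII array, by 2.86-fold for Fasn. Fads1, a desaturase, was higher by 2.06 (SE 0.31) and Cd36, which takes up fatty acids, by 2.05 (SE 0.32). Scd1 did not pass (1.31, adjusted p = 0.0967), and Scd2, the fetal stearoyl-CoA desaturase of mice, read 14.59 to 14.69 on the 4 arrays.

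Of 29 measured genes of phosphatidylcholine synthesis and remodelling 5 were higher and 1 lower, at a median of 0.23. These calls were lost under the replicate block (0 higher and 0 lower), and the male pattern term left 2 higher and 0 lower. Lpcat1, the acyltransferase that makes dipalmitoyl phosphatidylcholine, read 11.51 and 11.61 in AECI and 13.17 and 13.18 in AECII (1.62, SE 0.23, 3.07-fold). Gpam, which attaches the first acyl chain to glycerol phosphate, read 12.46 and 12.69 against 14.11 and 14.15 (1.56, SE 0.25). The phospholipases Pla2g1b (1.63, SE 0.23) and Pla2g4a (1.79, SE 0.25) were higher too, the latter on 1 of its 2 spots. Pcyt1a, the rate-limiting step of the CDP-choline route, overlapped between populations (9.64 and 9.40 in AECI, 9.49 and 9.76 in AECII). Prdx6, a peroxiredoxin that is also a phospholipase, was the member lower in AECII, with 13.33 and 13.07 in AECI and 11.64 and 11.68 in AECII (-1.54, SE 0.23).

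Of 48 measured transcription factors of the lung epithelial lineages, 1 was higher in AECII and 0 lower. The count depended on the fit. In limma 17 had an unadjusted p under 0.05, beside 4064 of all 24306 genes. Without overlap 21 lay higher and 10 lower in AECII, beside 23.5% and 22.1% of all genes. A mean-variance trend called 12 higher and 3 lower, beside 1006 and 914 of all genes. The gene called was Tfcp2l1, a grainyhead family factor, at 10.73 and 11.19 in AECI and 12.31 and 12.60 in AECII (1.496, SE 0.27), and its call was lost under the replicate block (adjusted p = 0.0631) and with the male pattern term (adjusted p = 0.0817). Nkx2-1, the factor of lung identity, read 13.87 and 13.91 in AECI and 13.98 and 13.99 in AECII (0.09, 95% interval -0.42 to 0.61). Foxa2 differed by -0.15 (adjusted p = 0.84). Among 27 measured regulators of distal tip progenitors 2 were higher (Fgfr2, above, and the Wnt-responsive factor Sp5, 1.37, SE 0.25) and 1 lower (Hmga2, a chromatin protein of fetal cells, -1.62), and none of these 3 calls held under the replicate block or the male pattern term. Sox9, the tip factor, read 8.30 and 9.28 in AECI and 10.51 and 10.44 in AECII (1.68, 95% interval 0.46 to 2.91, adjusted p = 0.163), and Id2 differed by 0.48 (adjusted p = 0.439).

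Junction, keratin and cell cycle genes differed in single members. Of 35 measured junction and adhesion genes 1 was higher and 2 lower, at a median of -0.34. Nectin1 was higher in AECII (9.68 and 9.68 in AECI, 11.48 and 11.17 in AECII) and Nectin3 lower (12.17 and 12.12 against 10.37 and 10.44), with differences of 1.64 (SE 0.24) and -1.74 (SE 0.24). These adhesion molecules bind each other across cell borders. Tjp1, the scaffold ZO-1, was lower by 1.52 (SE 0.28). Among 20 genes of basal cells and keratins 5 were lower and 0 higher, among them the simple epithelial keratins Krt8 (-1.86, SE 0.24) and Krt18 (-1.56, SE 0.24) and the lectin Lgals3 (-2.65, SE 0.26). Krt5, which defines basal cells, read 2.95 to 3.88 on the 4 arrays, next to the lower quartile of spots. Of 45 cell cycle genes 3 were lower and 0 higher, namely Rrm2 (-1.66, SE 0.26), which makes deoxyribonucleotides, Ccnd3 (-1.51, SE 0.23) and the cell cycle inhibitor Cdkn1b (-1.49, SE 0.22), while Mki67 differed by -0.38 (adjusted p = 0.609). The junction and cell cycle calls were lost under the replicate block and with the male pattern term (0 genes in each list), while 4 of the 5 basal and keratin calls were left by either.

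The class II MHC genes H2-Ab1 and H2-Aa, which type II cells are known to express, were higher in AECII. H2-Ab1 read 5.29 and 5.74 in AECI and 7.06 and 7.52 in AECII (1.77, SE 0.32), and H2-Aa read 3.19 and 3.29 against 5.39 and 5.74 (2.32, SE 0.35). H2-Aa lay close to the lower quartile of spots in AECI. The interferon response genes Ifit2 (-3.32, SE 0.56) and Bst2 (-2.02, SE 0.28) were lower, so that 2 of 38 measured members of the list were higher and 2 lower. Under the replicate block 0 of the 38 passed, and with the male pattern term 0 were higher and 1 lower, so both class II calls were lost.

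Airway genes gave most of the largest positive differences. Of 48 measured genes of the multiciliated fate and axoneme 13 were higher in AECII and 0 lower. The replicate block left 9 of these calls, and the male pattern term called 11 members, of which 9 were among the 13. The median of the list was 1.83, and 37 of the 48 had both AECII arrays above both AECI arrays. Multiciliated cells line the conducting airways and beat with motile cilia. Among the 12 higher genes of largest difference by the rule, the cilium genes Dnah5, Cfap65, Cfap44, Ccdc153, Foxj1, Lrrc23, Cfap43, Nme5 and Dnajb13 were all present.

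Foxj1, the master factor of motile cilia, read 5.19 and 5.88 in AECI and 10.21 and 9.83 in AECII (4.48, SE 0.41, 22.4-fold). Dnah5, a heavy chain of the outer dynein arm, read 4.05 and 4.29 against 9.51 and 9.45 (5.31, SE 0.80, 39.8-fold). Its call was lost under the replicate block (limma adjusted p = 0.0535) and with the male pattern term (limma adjusted p = 0.0629). The call of Ccdc153 was lost under both as well, and those of Cfap44 and Cfap65 under the replicate block. Lrrc23, a radial spoke protein, read 6.46 and 6.84 against 11.30 and 10.82 (4.40, SE 0.30). All 3 read higher in both AECII arrays than in either AECI array. Cfap44 was higher by 4.81 (SE 0.71, all 6 spots of the same sign) but its AECI arrays lay apart, at 2.76 and 5.09. Tekt1, a microtubule inner protein, read 3.80 and 1.64 in AECI, around the lower quartile of spots, and 7.81 and 7.31 in AECII (4.85, SE 0.68). Rfx3, a factor of ciliary genes in many cell types, differed by 0.58 (adjusted p = 0.269).

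RFX factors bind the X-box of ciliary promoters, of which GTTGCC is a core. On either strand it was present for 7 of the 10 called ciliary genes in the table and for 14.1% of all genes there. It was present for 61 of 248 called higher genes (24.6%) and for 36 of 283 called lower genes (12.7%). The promoters of Tekt1 (chr11:72361833-72362132, - strand) and Cfap44 (chr16:44394549-44394848, + strand) are shown as the holders of largest difference, with GTTGCC or its reverse complement in capitals. In Tekt1 the words begin 35 and 15 bases before the start site, and in Cfap44 129 and 19 bases before it. Dnah5 did not hold these letters in its window.
Tekt1: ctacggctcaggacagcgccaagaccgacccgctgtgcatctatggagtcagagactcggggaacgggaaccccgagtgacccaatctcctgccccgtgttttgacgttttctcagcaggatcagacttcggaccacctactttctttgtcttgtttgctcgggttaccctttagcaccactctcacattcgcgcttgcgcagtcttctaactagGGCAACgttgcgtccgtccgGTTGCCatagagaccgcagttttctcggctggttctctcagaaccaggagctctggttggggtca
Cfap44: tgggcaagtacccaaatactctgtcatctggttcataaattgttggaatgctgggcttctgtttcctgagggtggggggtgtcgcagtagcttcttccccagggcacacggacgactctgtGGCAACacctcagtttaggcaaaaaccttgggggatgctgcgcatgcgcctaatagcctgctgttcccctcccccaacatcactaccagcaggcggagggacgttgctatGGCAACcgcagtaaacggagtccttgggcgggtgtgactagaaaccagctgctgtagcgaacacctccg
For Tekt1 a further start site in the table did not hold the word.

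Club cells are the secretory cells of the bronchioles. Of 33 measured genes of club, goblet and secretory airway cells 8 were higher in AECII and 0 lower, with a median of 1.02. The replicate block called 4 members, of which 3 were among the 8, and the male pattern term left 2. Scgb1a1, the secretoglobin that defines club cells, read 11.18 and 11.39 in AECI and 14.55 and 14.58 in AECII (3.27, SE 0.45, 9.68-fold), a call that was lost with the male pattern term (adjusted p = 0.054). Cyp2f2, a cytochrome P450 of club cells, read 8.62 and 8.53 against 11.08 and 10.96 (2.44, SE 0.26). Scgb3a2, an early airway secretoglobin, was higher by 2.12 (SE 0.37), and the aldehyde dehydrogenase Aldh1a7 by 2.06 (SE 0.31). Sox2, the factor of airway fate, read 2.68 and 2.26 in AECI and 4.51 and 4.31 in AECII (1.94, adjusted p = 0.111), close to the lower quartile of spots. The mean over the multiciliated list was 5.42 and 5.35 in the AECI arrays and 7.64 and 7.33 in the AECII arrays, and over the club list 6.66 and 6.62 against 7.79 and 7.52. Their part in the type II results above was not tested.

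**Figure D3:**
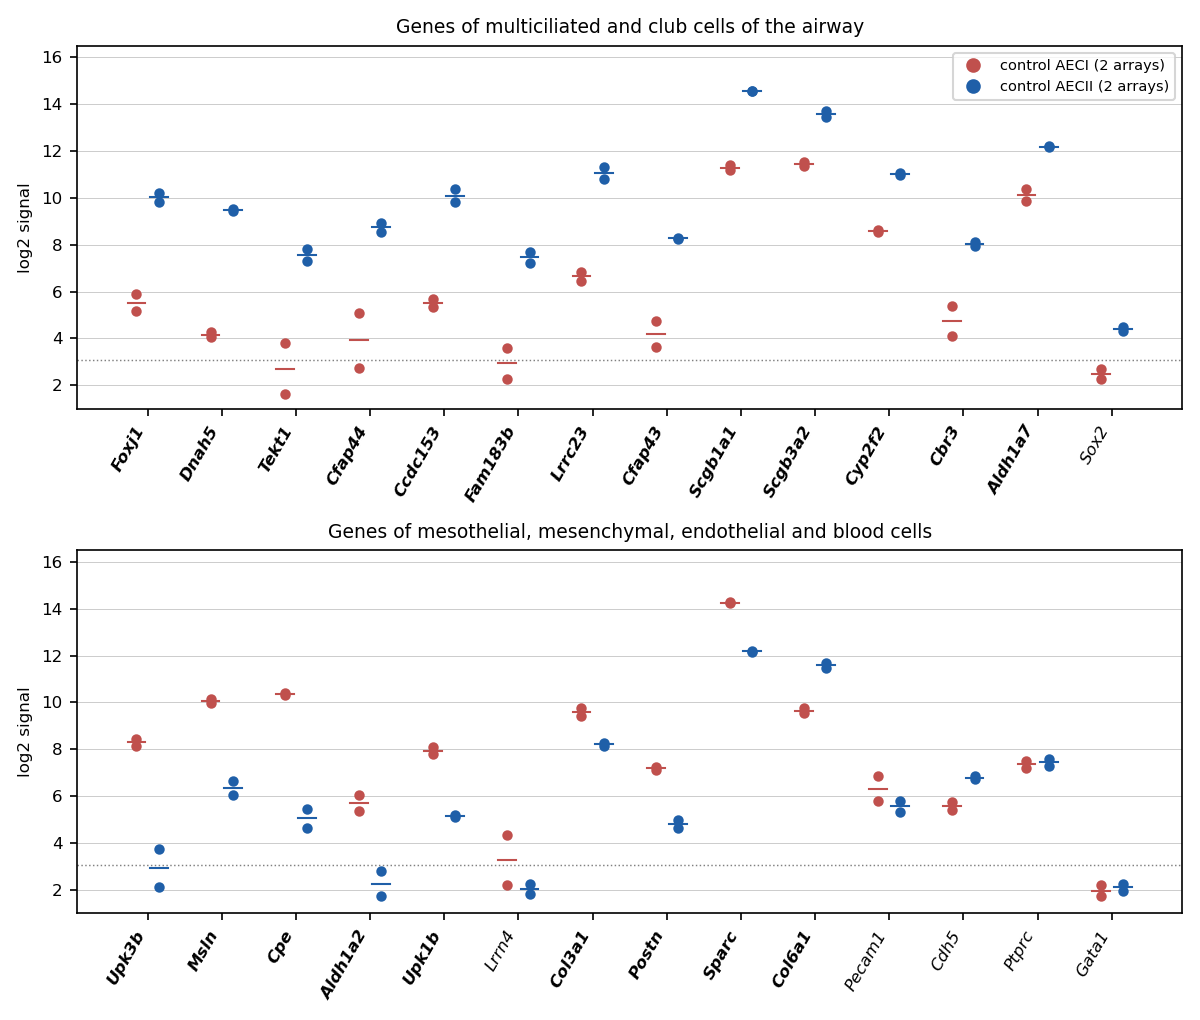
Points are the log2 signal of each control array, red for AECI and blue for AECII (2 arrays each), with group means as short lines, the lower quartile of spots (3.07) dotted and genes past the threshold in bold. Multiciliated and club genes lie higher in both AECII arrays (upper panel). In the lower panel mesothelial genes other than Lrrn4 lie higher in both AECI arrays, and Pecam1, Ptprc and Gata1 show little or no gap.

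Mesothelial genes that passed were lower in AECII. The mesothelium is the thin cell layer that covers the lung surface. Of 14 measured members 7 were lower in AECII and 0 higher, with a median of -2.57 and a mean over the list of 8.16 and 7.74 in AECI and 5.62 and 5.68 in AECII. Upk3b read 8.45 and 8.15 in AECI and 2.14 and 3.76 in AECII (-5.35, SE 0.58), and Msln, the gene of mesothelin, read 9.99 and 10.15 against 6.65 and 6.05 (-3.72, SE 0.31). Aldh1a2, which makes retinoic acid, was lower by 3.43 (SE 0.56). Krt7 and Igfbp6, which the list shares with type I and growth factor genes, were lower by 2.60 and 2.55. Cpe, also called lower, is shared with the neuroendocrine list. The replicate block left 5 of the 7 calls, and the male pattern term called 6 members, of which 5 were among the 7. The call of Aldh1a2 was lost under both. Lrrn4, another defining member, read 4.34 and 2.19 in AECI and 2.24 and 1.82 in AECII and did not pass, and Wt1 read 10.01 to 10.30 on all 4 arrays, with 1 of its 2 spots of each sign. The part of these genes in the type I results was not tested.

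Fewer markers of other cells passed. Of 23 measured mesenchymal genes 3 were lower (Sparc, -2.07, SE 0.22; Postn, -2.37, SE 0.30; Col3a1, -1.36, SE 0.24) and 2 higher (Col6a1, 1.95, SE 0.33; Col6a2, 1.70, SE 0.24). The replicate block left 2 of the lower and 1 of the higher mesenchymal calls, and the male pattern term 2 and 0. Col1a1 read 10.12 and 10.84 in AECI and 9.17 and 9.28 in AECII (-1.26, adjusted p = 0.0959). Of 21 endothelial genes 1 was lower, Esam (-2.73, SE 0.40), a junction protein that is also found outside endothelium. The call of Esam was lost under the replicate block and with the male pattern term. Pecam1 read 5.34 to 6.86 over the 4 arrays. Of 21 leukocyte genes 0 passed in limma, and 4 had an unadjusted p under 0.05, beside 4064 of all 24306 genes. With a prior that follows mean level (a mean-variance trend) 1 was called higher, beside 1006 of all genes. Ptprc read 7.21 to 7.60. Of 15 erythroid genes 1 was higher, the transferrin receptor Tfrc (1.75, SE 0.23), which other dividing cells also use, and Gata1 read 1.73 to 2.24 while the globin gene Hba-a1 read 14.83 to 15.39. Genes of neuroendocrine cells gave 2 lower of 23, Cpe (10.42 and 10.30 in AECI, 5.46 and 4.63 in AECII) and Ddc (12.52 and 12.56 against 8.37 and 8.75), with Ddc of opposite sign on 1 of its 2 spots. Calca, which defines these cells, read 2.28 to 3.42. Of 24 immediate early and heat shock genes, which respond to tissue dissociation, 1 passed, Ier3 (-1.91, SE 0.31), and the median was 0.02. The call of Ier3 was lost under the replicate block and with the male pattern term.

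**Figure D4:**
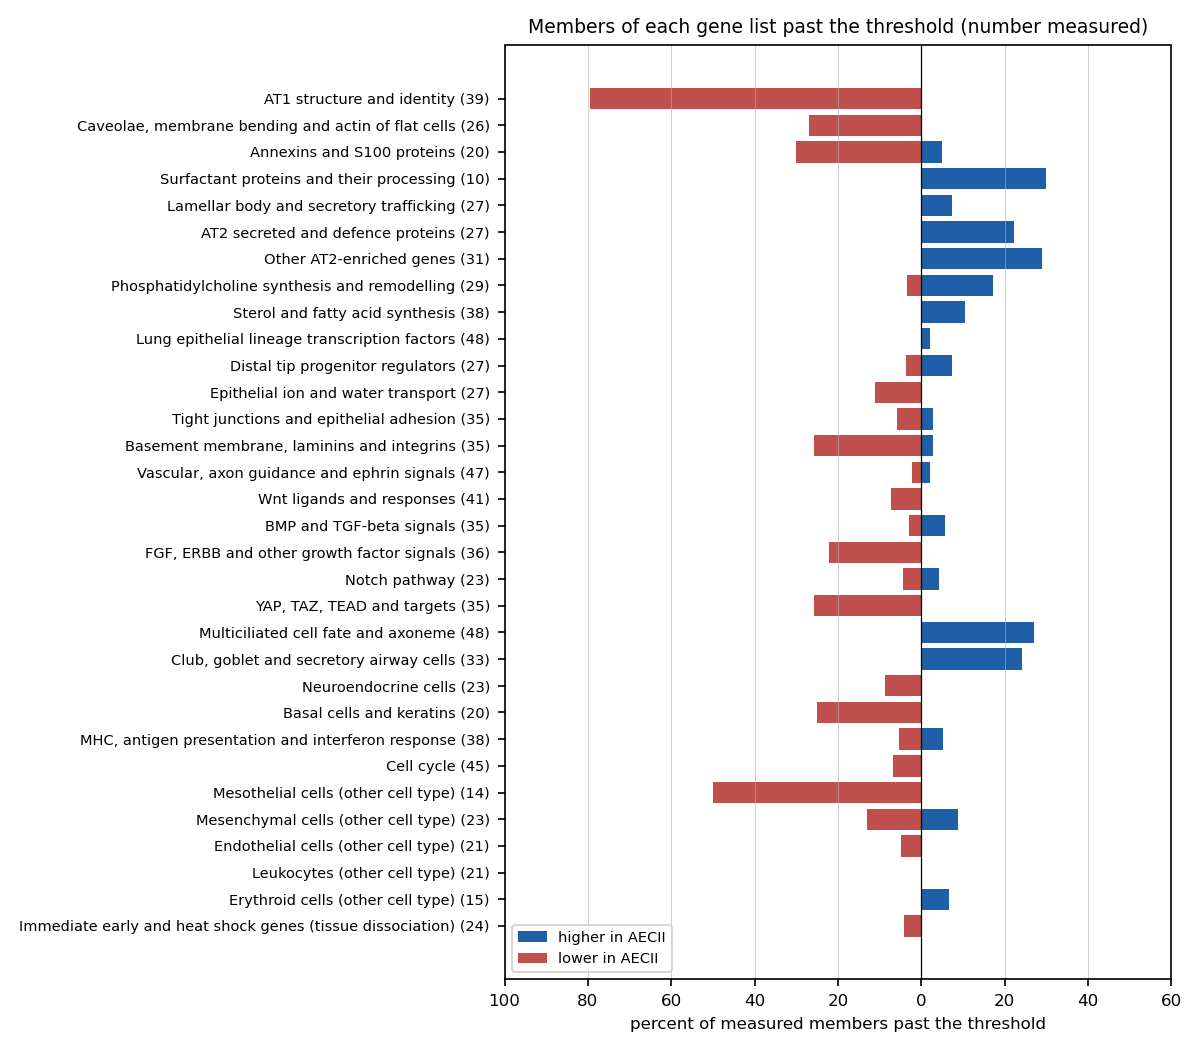
Bars give the percent of measured members of each gene list that passed the threshold, to the right in blue for genes higher in control AECII and to the left in red for genes lower, with the number of measured members in brackets. The type I list reaches farthest to the left (31 of 39), followed by the mesothelial list (7 of 14). The surfactant (3 of 10), other AT2-enriched (9 of 31) and multiciliated (13 of 48) lists reach farthest to the right. The lists were chosen with earlier results of these data known.

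Several of the lower genes of largest difference lay outside the lists. Tent5b, a cytoplasmic poly(A) polymerase, read 11.57 and 12.21 in AECI and 6.99 and 6.12 in AECII (-5.33, SE 0.45, 40.3-fold). Stx11, a syntaxin of vesicle fusion best known from cytotoxic lymphocytes, read 9.05 and 9.22 against 3.98 and 3.84 (-5.22, SE 0.24, 37.4-fold). Prkag3, a regulatory subunit of AMP kinase described mainly in muscle, read 11.66 and 10.96 against 6.76 and 5.89 (-4.99, SE 0.41, all 3 spots of the same sign). Each read far lower in both AECII arrays than in either AECI array. Scel, a component of cornified envelopes, was lower by 4.80 (SE 0.69), with AECII arrays at 2.97 and 4.99. The call of Scel was lost under the replicate block (limma adjusted p = 0.0601). Plb1, a phospholipase of the membrane, was lower by 4.69 (SE 0.25) on its brightest spot, but only 2 of its 6 spots had that sign. Zbtb8b (-5.03, SE 0.55) and Misp3 (-4.68, SE 0.46) completed this group.

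The experimental AECII and AECI arrays, which share no sample with the controls but do share the estimate of spread, gave a second look at the same contrast. Of the 689 genes, 669 had the same sign there, and 294 of the 316 higher and 360 of the 373 lower genes did not overlap in the same direction. The shares over all genes were not counted in the experimental arrays, so these counts have no background beside them. In the control arrays 23.5% of all genes lay higher and 22.1% lower in AECII without overlap. The 689 genes were picked on the control arrays, which favours large control differences. The type I list had a median of -2.42 in experimental lungs and -2.45 in controls, the surfactant list 0.52 and 0.60, and the multiciliated list 3.45 and 1.83. The test of the difference between the contrasts called 0 genes by limma, with 2095 at an unadjusted p under 0.05 and 0 calls with a prior that follows mean level (a mean-variance trend), so no difference is shown to be particular to control lungs. Slc44a4, a choline transporter-like protein, was among the genes that passed in controls, with 2.22 and 2.14 in AECI and 4.24 and 5.18 in AECII (2.53), and its difference in experimental lungs was 0.22. Its AECI level lay under the lower quartile of spots.

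**Figure D5:**
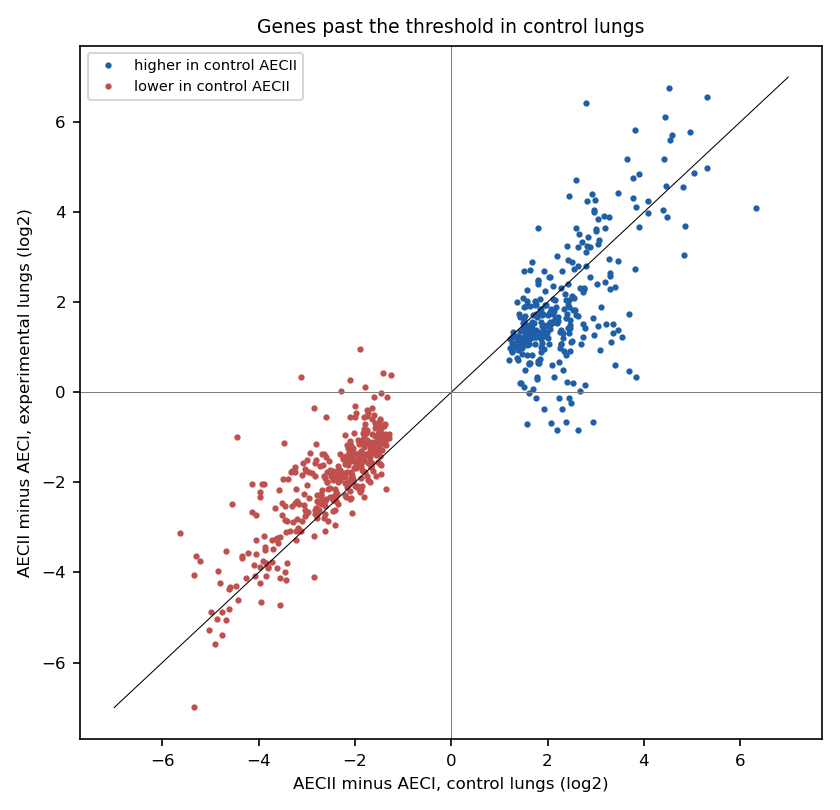
Each point is 1 of the 689 genes past the threshold in control lungs, with its AECII minus AECI difference (log2) in control lungs on the x axis and in experimental lungs on the y axis, and equality drawn as a line. Most of the 316 higher genes (blue) lie above 0 and most of the 373 lower genes (red) below 0 on both axes.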

How the data were processed

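RNA of FACS-isolated AECI and AECII from E18.5 mouse lungs was amplified and labelled with Cy5 (2 µg amplified cDNA per sample), and each sample was hybridised to 1 single-colour array. The deposited log2 signals had been normalized between arrays by the authors: after sorting, no 2 arrays differed by more than 0.0056 at any rank. The log base was inferred from the highest value, 15.995. The submitters' processing notes name limma. Its version, the correction for background and the scanner's settings were not given in the sources used here. No detection flag was used. Of 62976 spots 43941 had a gene symbol in the platform annotation and 19035 had none. Names were updated through RefSeq (GRCm38.p6), 33708 spots by accession, 9763 by current symbol, 463 by synonym, and 7 kept the old name. The spot with the highest mean over 8 arrays stood for each gene, so a bright unspecific spot could represent it.

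Group and replicate number came from the sample titles. All 8 arrays (4 groups of 2) were fitted with limma (version 3.58.1, R 4.3.3) as 4 group means, with eBayes without trend (4 residual and 2.26 prior degrees of freedom), the contrast AECII control minus AECI control, and Benjamini-Hochberg adjustment over 24306 genes. The paper supplied with the series does not describe this experiment, so its methods did not set the test. Differences are log2 values, intervals are at 95%, and precision is limited by the small number of arrays. An exact permutation test of 2 against 2 arrays cannot reach the threshold and was not used. Alternatives were other centring, filters on dim genes, other rules for several spots, other priors, array weights, the male pattern, the replicate block and left-out arrays. Same-numbered control arrays deviated from their group means with r = -0.10 across genes, so the numbers were not taken as pairs.

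Named genes are the 12 higher and 12 lower genes of largest difference whose arrays do not overlap and whose dimmer group is not under the lower quartile of spots, passing over predicted genes and chemosensory receptors. To these each list adds its defining members, up to 8 members per direction past the threshold and up to 4 bright members not past it. Not all of them are described. The comparison, the gene lists (33, of which 1 held sex-linked genes) and the rule were chosen with earlier results of these data known. Members absent from the table of genes were left out of the counts. Tables were made with Python 3.11.15, numpy 2.4.6, pandas 2.3.3 and scipy, and plots with matplotlib 3.10.9.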

Additional observations from a re-analysis of the deposited data

How the results depend on the processing

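With 2 arrays per population, the number of genes past the threshold depended on the fit. The main counts of 316 higher and 373 lower genes became 496 and 527 among genes at or above the lower quartile of spots, 783 and 765 at or above the median, and 1006 and 914 with a mean-variance trend. With the replicate block they were 108 and 203, with the crossed numbers as a block, an alternative chosen after seeing the data, 66 and 149, and with the male pattern as a covariate 144 and 227. The 4 control arrays alone, and the arrays left without both of male pattern, gave 0 and 0. Leaving out each array in turn gave 0 to 196 higher and 0 to 267 lower genes, with 0 where an AECII control array was left out, 81 and 92 without AECI control replicate 1, 83 and 110 without AECI control replicate 2, and 42 and 110 without either experimental AECII array. A lone array is then assumed to vary like the other groups. Centring, the mean or median of spots, the robust prior and array weights kept both counts within 1.5 times. The interaction test called 0 genes under every alternative that could give it. It could not be had from the control arrays alone.
Of the genes named, the 132 past the threshold kept their sign under every alternative except Sulf1, which read 0.0097 with the median of its spots. Most of this was fixed beforehand. Other priors, array weights, filters, covariates and left-out experimental arrays leave the difference itself unchanged. The control arrays of these genes did not overlap, so leaving any of them out cannot turn a sign. Only centring and the rules for several spots could have done so.
The other reversals were of genes not past the threshold. With the mean of spots Wt1 read -1.25, Trp63 -0.44 and Mcidas -0.12, and with the median of spots -1.25, -0.80 and -0.12. Without both arrays of male pattern Foxa2 read 0.0096, Lrrn4 0.047, Mcidas -0.033 and Scd2 -0.023. With single arrays left out Foxa2 ranged from -0.32 to 0.015, Gata1 from -0.11 to 0.38, Pcyt1a from -0.032 to 0.24, Ptprc from -0.066 to 0.24 and Scd2 from -0.043 to 0.059.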

Other observations

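The spot with the highest mean was not always a plausible measure of its gene. Trp63, the factor that defines basal cells, read 13.91 to 14.05 on the 4 control arrays, with 1 of its 4 spots of the same sign as the difference of 0.06, while the basal keratin Krt5 read 2.95 to 3.88. Mcidas, an early regulator of multiciliated cells, read 13.95 to 14.41, with 1 of its 2 spots of the same sign, while Foxj1 read 5.19 to 10.21. Kdm5d, which is Y-linked, read 12.53 to 12.83 on the 4 control arrays, although Uty read 7.18 and 6.87 on the arrays of male pattern and 2.08 and 2.67 on the others. Among the 371 genes past the threshold that had several spots, all spots agreed in sign for 303.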
